A study of Bos grunniens with 6 samples.

Results

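The genes described here carry the names of the cell division machinery: cyclins and cyclin-dependent kinases, CDC genes, centromere and kinetochore proteins, spindle checkpoint proteins, Aurora, Polo and NEK kinases, subunits of the anaphase-promoting complex, and centrosome proteins. They were taken from the annotated m6A peak list of cattle-yak testis by a pattern of gene symbols (for example CCN, CDK, CDC, CENP, AURK, ANAPC, NEK or CEP followed by a number or letter). The pattern found 125 gene identifiers under 116 symbols, with 274 peaks, out of 8986 identifiers and 16186 peaks in the list. Since the genes were found in a list of peaks, each of them has a peak by construction, and that fact is no result.

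m6A is a methyl group on adenosine within RNA. It is placed on nascent mRNA by a methyltransferase complex, most often near the stop codon and in long internal exons, and proteins that bind it change the splicing, decay and translation of the transcript. Cell division runs on proteins that are made and destroyed in order. Cyclins switch on their kinases, centrosomes build the poles of the spindle, kinetochores tie chromosomes to spindle fibres, and the anaphase-promoting complex ends mitosis by marking cyclins and securin for destruction. In the testis the same proteins drive the mitoses of spermatogonia and the divisions of meiosis, and the centriole also forms the base of the sperm tail.

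Cattle-yak is the hybrid of yak and cattle, and its males are sterile. Testis tissue came from 3 male cattle-yaks (organism label Bos grunniens), each 5 years old, named TES5, TES6 and TES7. Poly(A) RNA of each animal was fragmented and split into an antibody-enriched m6A library and an input library, which gives 6 libraries. All animals belong to 1 group with no treatment, so no comparison between conditions exists and no test was made. The peaks form 1 list for the group, without a score or a value per animal, while expression was deposited for each input library as FPKM, a level scaled to transcript length and to the fragments mapped in the library.

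Read numbers cannot be had from FPKM, so no detection limit per gene is given. The Leydig cell gene STAR had 100, 108 and 112 FPKM in TES5, TES6 and TES7, the order in which 3 values are given throughout, and the spermatocyte gene SYCP3 had 24.4, 18.0 and 19.8. Of 7 spermatid markers, 0 were in the peak list, beside 45.2% of the 16457 named protein-coding symbols of the yak RefSeq annotation. Only 4 of the 7 are among those symbols, and the lack of a listed peak does not give their expression. The table of FPKM holds identifiers only, so the level of a gene is known by name only where the gene has a peak. In bulk tissue, fewer cells of a type and less RNA per cell cannot be told apart.

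Of the 125 identifiers, 93 (86 symbols, 222 peaks) were assigned by symbol to families of cell division, called a direct role below. The other 32 (30 symbols, 52 peaks) were set apart, such as CDC42 effectors and the kinases of transcription. This division by symbol is rough. MAD2L2 and NEK1 count as direct and CDC34, CDK3 and CCNG1 do not, and genes of the second group may also act in the cell cycle. Gene ontology terms in the peak list were available for 114 of the 125. The term centrosome was attached to 25 of them (21.9%), against 2.03% of all listed genes with terms, and the term cell division to 21 (18.4%), against 1.86%. The genes were chosen by names given to such proteins, so high shares of these terms follow from the choice and are no result.

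The named genes of the yak RefSeq annotation (assembly Bosgru_T2T1.0, used for names only) gave a view of which members of each family had a peak. Of 179 protein-coding symbols that meet the pattern, 112 were in the peak list (62.6%, Wilson 95% interval 55.3 to 69.3), beside 45.2% of all 16457 named protein-coding symbols. Both shares take in symbols whatever their expression in testis. The level of genes without a peak is not known by name, so the shares could not be compared at like expression. Centrosome genes stood at 35 of 43 and NEK kinases at 8 of 11. Cyclins of the cell cycle stood at 4 of 10 (with CCNB1IP1, a factor of meiotic recombination, counted among the 10 by its name), their kinases at 1 of 4 and kinetochore genes at 10 of 21. A further 4 symbols of the set are not among the 179 and are left out here. CENPI and CENPS of the kinetochore, both with a peak, are among them. Intervals of this kind cover counting error only, as genes and peaks are not replicates.

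Several central regulators were not found under these names. No peak was listed for CDK1, CDK2 or CDK4, for the B-type cyclins CCNB1, CCNB2 and CCNB3, for CCND2 and CCND3, for the anaphase activator CDC20, or for the checkpoint genes BUB1, BUB1B, BUB3 and MAD2L1. CENPA, the histone that marks the centromere, and PCNT, the scaffold of the pericentriolar material, were also without a listed peak. A name can miss a gene, since CEP43 stands in the list under its older symbol FGFR1OP with 2 peaks, and the phosphatase CDC25A as Cdc25A, also with 2 peaks. The Cdc25A gene had 5.27, 4.26 and 5.4 FPKM in TES5, TES6 and TES7.

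Many of the 274 peaks were wide. Their median width was 2451 bp, with quartiles of 450 and 7817 bp, whereas all listed peaks had a median of 1022 bp and quartiles of 299 and 4913 bp. Width is the genomic distance from the listed start to the listed end, so a peak that reaches over introns counts them in. Widths up to 1000 bp were found for 99 of the 274 (36.1%, interval 30.7 to 42.0), against 49.8% of all peaks, and widths over 10000 bp for 50 (18.2%), against 14.4%. Over 50000 bp there were 5 peaks (1.82%), beside 2.17% in the whole list.

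**Figure D1:**
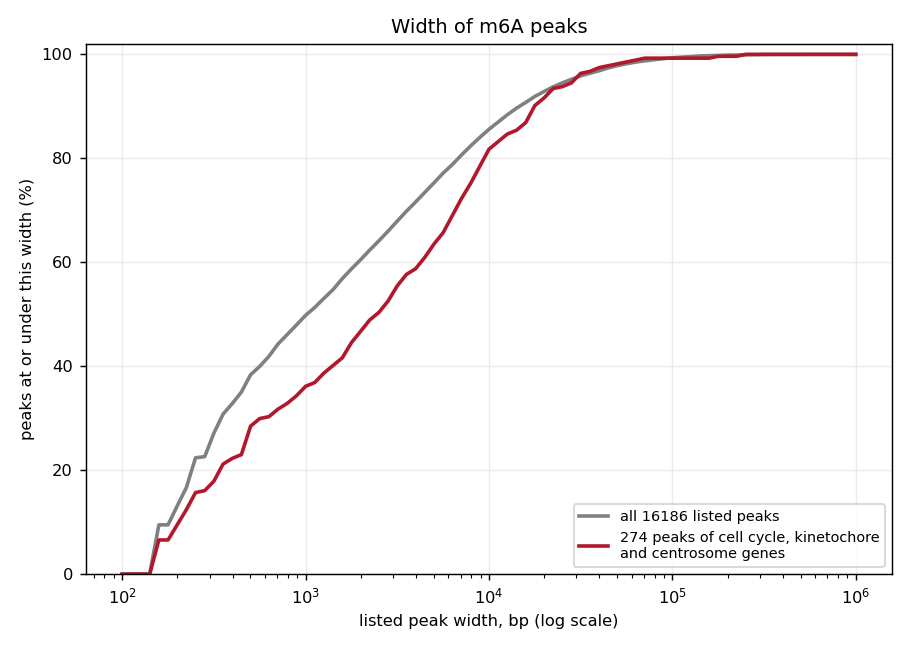
Share of peaks (%) at or under a given width (bp, log scale) for the 274 peaks of cell cycle, kinetochore and centrosome genes and for all 16186 listed peaks. The curve of the cell division genes lies to the right of the curve of all peaks over most of the range, with medians of 2451 and 1022 bp, and the curves meet among the widest peaks.

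The authors' annotation placed 204 peaks in exons (74.5%, interval 69.0 to 79.3), 45 in the 3' UTR (16.4%, 12.5 to 21.3) and 25 in the 5' UTR (9.12%). The shares over all peaks were 70.3%, 20.8% and 8.82%. Among peaks over 1000 bp the exon share was 80% for these genes and 76.2% for all. Among narrower ones the exon share was 64.6% and 64.4%, and the 3' UTR share was 25.3% and 28.1%. Exon peaks had a median width of 3200 bp (1333 bp over the list), and 3' UTR peaks one of 643 bp (447 bp over the list).

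Few narrow exon peaks lay in the last exon. For transcripts of at least 3 exons and widths up to 1000 bp, it held 5 of 50 peaks (10%, interval 4.35 to 21.4), beside 25.6% of 4171 peaks in the whole list. These genes have more exons, a median of 14 per annotated transcript against 10, and the share falls with the number of exons. Among transcripts of 20 or more exons, 0 of 24 narrow peaks of the cell division genes and 10.7% of 967 over the list lay in the last exon, where a count of 0 has an upper interval bound of 13.8%. Among transcripts of 3 to 9 exons the counts were 3 of 6 and 36.5% of 1993. Peaks of the 3' UTR class are left out of these counts. They made up 25 of the 99 narrow peaks of the set (25.3%) and 28.1% of those over the list.

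The 125 genes carried 2.19 peaks on average, beside 1.80 for all listed genes. Peaks were counted as listed, and some overlap or lie within 100 bp of another peak of the same gene. Merging those left 256 of the 274 peaks, and 15277 of the 16186 over the list. At least 2 peaks were found on 67 of the 125 (53.6%), against 46.0% of all listed genes, and at least 5 peaks on 10 (8.0%, interval 4.4 to 14.1), against 3.28%. Transcripts of these genes were also longer, with a median span of 32848 bp against 28394 bp. Within classes of span the difference ran both ways. Below 10 kb, the 27 cell division genes had 1.15 peaks each and all 2263 listed genes 1.39, while above 100 kb the 23 cell division genes had 3.43 and all 1664 listed genes 2.32. Across the 125 genes, peak number and span had a Spearman's rho of 0.50 (0.29 over all listed genes), and peak number and mean FPKM one of -0.16 (-0.00298 over all listed genes). Genes are not independent replicates, so these are descriptions.

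**Figure D2:**
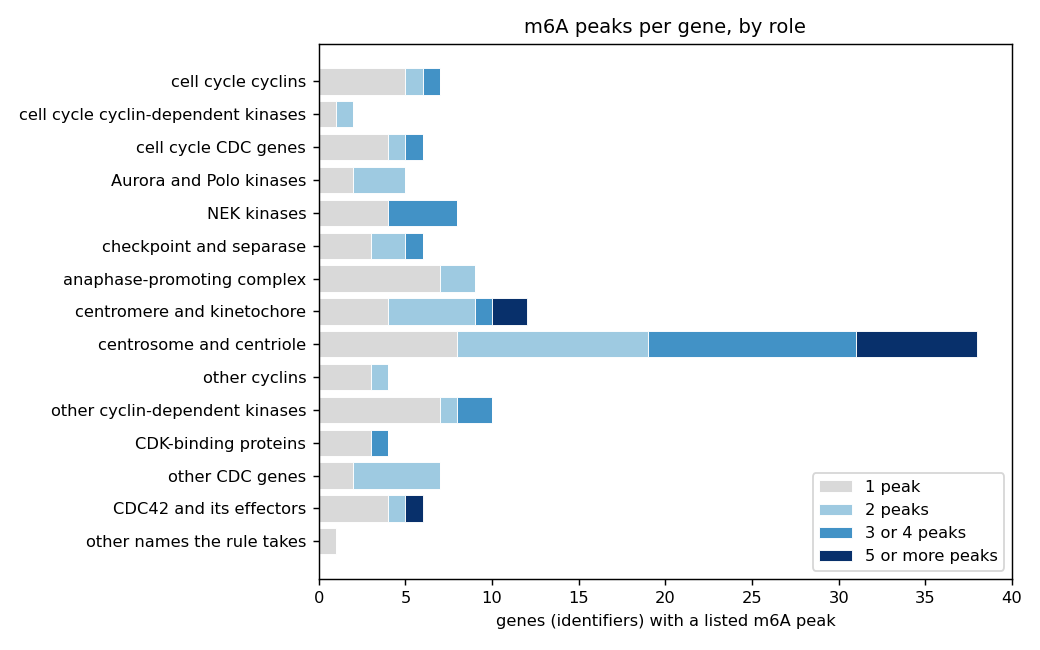
Number of gene identifiers in each role (horizontal axis), split by how many listed m6A peaks they carry (shades from 1 peak to 5 or more peaks). Centrosome and kinetochore genes hold the longest dark segments, with 3.16 and 2.92 peaks per gene, while 7 of the 9 anaphase-promoting complex genes carry a single peak. Of the 35 kinetochore peaks, CENPE carries 9 and CENPF 8.

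Cyclins and their kinases start the cycle. The cell cycle cyclins in the list were CCNA1, CCND1, CCNE1 and CCNE2, with 7 identifiers and 10 peaks. CCNA1, the cyclin A of male germ cells in meiosis, had 8.36, 5.57 and 2.83 FPKM in TES5, TES6 and TES7. Its coefficient of variation (SD divided by mean, CV) of 49.5% was the largest among the 112 genes that reached 1 FPKM in all 3 animals, and TES5 stood 2.95-fold above TES7. Its 1 peak was a narrow one of 483 bp, in exon 2 of 8 (chr15:57732582-57733064 of build LU_Bosgru_v3.0, as are all coordinates here).

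CCND1, the D-type cyclin of the G1 phase, was at the other extreme. The symbol covers 3 identifiers on chromosome 29, and the strongest, ENSBGRG00000008216, had 32.9, 32.6 and 32.7 FPKM, a CV of 0.530%. It carried a 193 bp peak in the 3' UTR (chr29:5698288-5698480). A further identifier on the plus strand (ENSBGRG00000008155, 4.43, 4.55 and 3.37 FPKM) likewise had 1 peak in its 3' UTR, of 201 bp. ENSBGRG00000008704 on the minus strand (11.7, 9.90 and 12.6 FPKM) had an exon peak of 8443 bp. Whether these are copies or pieces of 1 gene is not known from the files, and their reads may have been split between them.

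The E-type cyclins lead into DNA replication. CCNE2 had 7.22, 4.64 and 5.73 FPKM, lowest in TES6, with a peak in the 5' UTR and a peak in exon 11 of 12. CCNE1 stands under 2 identifiers on opposite strands of chromosome 20, 109619 bp apart, with means of 4.25 ± 0.512 and 7.50 ± 0.720 FPKM (SD, n = 3). The former had 3 peaks, of which 2 were in the 3' UTR. CDK6, the kinase of D-type cyclins and the only one of CDK1, CDK2, CDK4 and CDK6 in the list, also had 2 identifiers on chromosome 4, 14416 bp apart on the same strand, at 4.90 ± 0.702 and 5.52 ± 0.833 FPKM with 3 peaks between them.

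CDC genes with a cell cycle role act in replication or as phosphatases. CDC7, the kinase that fires replication origins, had 12.7, 13.0 and 12.3 FPKM and 1 peak. CDC45 of the replicative helicase averaged 7.48 ± 0.312 FPKM and the licensing factor CDC6 averaged 3.16 ± 0.327, with 2 and 3 peaks. CDC25B and CDC25C, the phosphatases that release CDK1 at the entry into mitosis, were low. CDC25B had 1.61, 2.56 and 1.90 FPKM and CDC25C 1.58, 1.23 and 2.03, each with 1 narrow exon peak, in exon 15 of 16 and exon 11 of 13. CDC14A, a phosphatase of late mitosis, averaged 0.837 FPKM.

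Of 4 Aurora and Polo kinase identifiers with at least 1 FPKM in all animals, 3 were highest in TES5, and 2 when the libraries were set to equal FPKM sums. Over all 7629 listed genes with at least 1 FPKM in all animals, 35.9% were highest in TES5, and 25.1% at equal sums. AURKA, the kinase of spindle poles, had 17.5, 15.0 and 12.6 FPKM in TES5, TES6 and TES7. It had a 2563 bp peak at exon 2 of 8 (chr12:53272079-53274641) and a 549 bp peak in the 3' UTR (chr12:53282823-53283371). PLK1, which acts at poles and kinetochores, had 7.17, 6.70 and 5.92 FPKM and 1 peak of 246 bp in exon 1 of 11. PLK4, the kinase that starts centriole duplication, had 6.59, 4.25 and 4.84 FPKM, and 1 of its 2 peaks lay off the transcript it was assigned to.

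AURKB, the kinase of the chromosomal passenger complex, was not highest in TES5. Its main identifier had 6.38, 8.28 and 6.67 FPKM, highest in TES6, and 1 exon peak of 1955 bp. The second AURKB identifier had 0.459, 0.804 and 0.640 FPKM, and the exon named for both of its peaks is that of the neighbour ENSBGRG00000026729, which has 12.7, 10.6 and 10.51 FPKM.

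The 8 NEK kinases carried 16 peaks. NEK2, which splits the centrosomes before mitosis, had 15.8, 12.8 and 10.8 FPKM and 1 peak in each of the 5' UTR, exon 6 of 8 and the 3' UTR. NEK9, an activator of other NEK kinases in mitosis, was the most abundant at 28.3, 35.4 and 37.3 FPKM, lowest in TES5. NEK1, a kinase of cilia and DNA repair, averaged 7.35 ± 0.386 FPKM and held a peak of 70708 bp. NEK4, NEK6 and NEK3 averaged 11.4, 4.45 and 3.85 FPKM. NEK11 and NEK5 stayed under a mean of 1 FPKM.

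Checkpoint genes and separase had 6 identifiers and 10 peaks. ESPL1, the separase that cuts cohesin at anaphase, had 6.71, 5.74 and 5.88 FPKM and 3 narrow exon peaks of 150 to 496 bp. CHEK1, the kinase of the DNA damage checkpoint, averaged 1.90 ± 0.194 FPKM. MAD2L2, a partner of translesion polymerase despite its name, had 5.44, 3.93 and 3.27 FPKM, while MAD2L1BP, which silences the checkpoint, had 1.5, 2.30 and 2.67. The order of the animals was opposite in this pair.

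MAD1L1, the protein that brings MAD2 to unattached kinetochores, held the widest peak of the set. It was 249662 bp long (chr26:5999365-6249026) and was listed for ENSBGRG00000024305, an identifier of 1287 bp on the minus strand with 0, 0 and 0.0408 FPKM. The annotation itself names exon 3 of 19 of ENSBGRG00000024182, the MAD1L1 identifier on the plus strand, which had 5.87, 5.24 and 5.18 FPKM and 2 further peaks in the 5' UTR. The wide peak contains the whole transcript it was assigned to.

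The anaphase-promoting complex had few peaks per gene. Its 9 genes had 11 peaks, 1.22 per gene, and 5 of those were in exons (45.5%), 4 in the 3' UTR and 2 in the 5' UTR. Levels were close between animals, with a median CV of 7.02%. The median level was 11.3 FPKM, with a range of means from 4.07 (CDC26) to 28.9 (ANAPC16). ANAPC16 had 28.1, 31.8 and 26.9 FPKM, ANAPC2 had 28.1, 21.6 and 23.1, and ANAPC7 had 21.0, 19.3 and 20.6. CDC27, a core subunit of the arm that binds substrates' activators, had 5.99, 8.11 and 7.48 FPKM and exon peaks of 5720 and 6543 bp. ANAPC4, ANAPC5, ANAPC13 and CDC16 had 1 peak each.

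Kinetochore genes had many wide exon peaks, most of them on few genes. The 12 genes held 35 peaks, of which 30 (85.7%) were in exons, with a median width of 4037 bp. Of these 30, CENPE held 9 and CENPF 8, and 4 listed for CENPP were placed in exons of other identifiers. The shares and peaks per gene of this role thus rest largely on CENPE and CENPF. After merging of peaks that overlap or lie within 100 bp, CENPE had 7 and CENPF 5. CENPE, the kinesin that moves chromosomes to the spindle equator, had 9 peaks, spread from exon 11 to exon 45 of 47, though only 1.32, 1.31 and 1.03 FPKM. CENPF, a protein of the outer kinetochore and nuclear envelope, had 8 peaks that covered 68.6% of its span, at 7.77, 6.90 and 7.25 FPKM. The gene with the most peaks in this role thus had the second lowest mean FPKM.

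Inner kinetochore genes had 1 to 4 peaks. CENPC, the scaffold that binds CENPA nucleosomes, averaged 6.5 ± 0.921 FPKM, with exon peaks of 31253 and 11543 bp. CENPS, a histone fold protein of the inner kinetochore and of DNA repair, had 21.8, 14.2 and 12.7 FPKM and 1 peak of 7879 bp (chr14:40139294-40147172). CENPU had 7.23, 4.36 and 4.79 FPKM, and its partners of the CENP-O complex, CENPO and CENPQ, averaged 7.69 and 4.27. CENPN and CENPI averaged 6.57 and 3.49 FPKM.

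CENPP, also of the CENP-O complex, had the lowest mean of the role. It had 0.681, 1.32 and 1.31 FPKM, and its 4 peaks were all placed in exons of 2 other identifiers. One of these, ENSBGRG00000013425, had 10.2, 15.6 and 11.2 FPKM. Over the whole set, 11 of 204 exon peaks (5.39%) named an exon of another identifier, against 2.77% over the list.

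The microtubule-binding NDC80 complex was represented by NUF2 and NDC80. NUF2 had 6.94, 5.51 and 3.81 FPKM, 1.82 times higher in TES5 than in TES7, and 1 peak of 25915 bp around exon 10 of 15 (chr3:11838261-11864175). NDC80 had 1.85, 1.44 and 1.47 FPKM and 2 exon peaks. Both were highest in TES5, as were 9 of the 11 kinetochore genes that reached 1 FPKM in all animals, with TES7 highest for the other 2. At equal library sums it was 8 of the 11, beside the shares of 35.9% and 25.1% over listed genes given above.

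**Figure D3:**
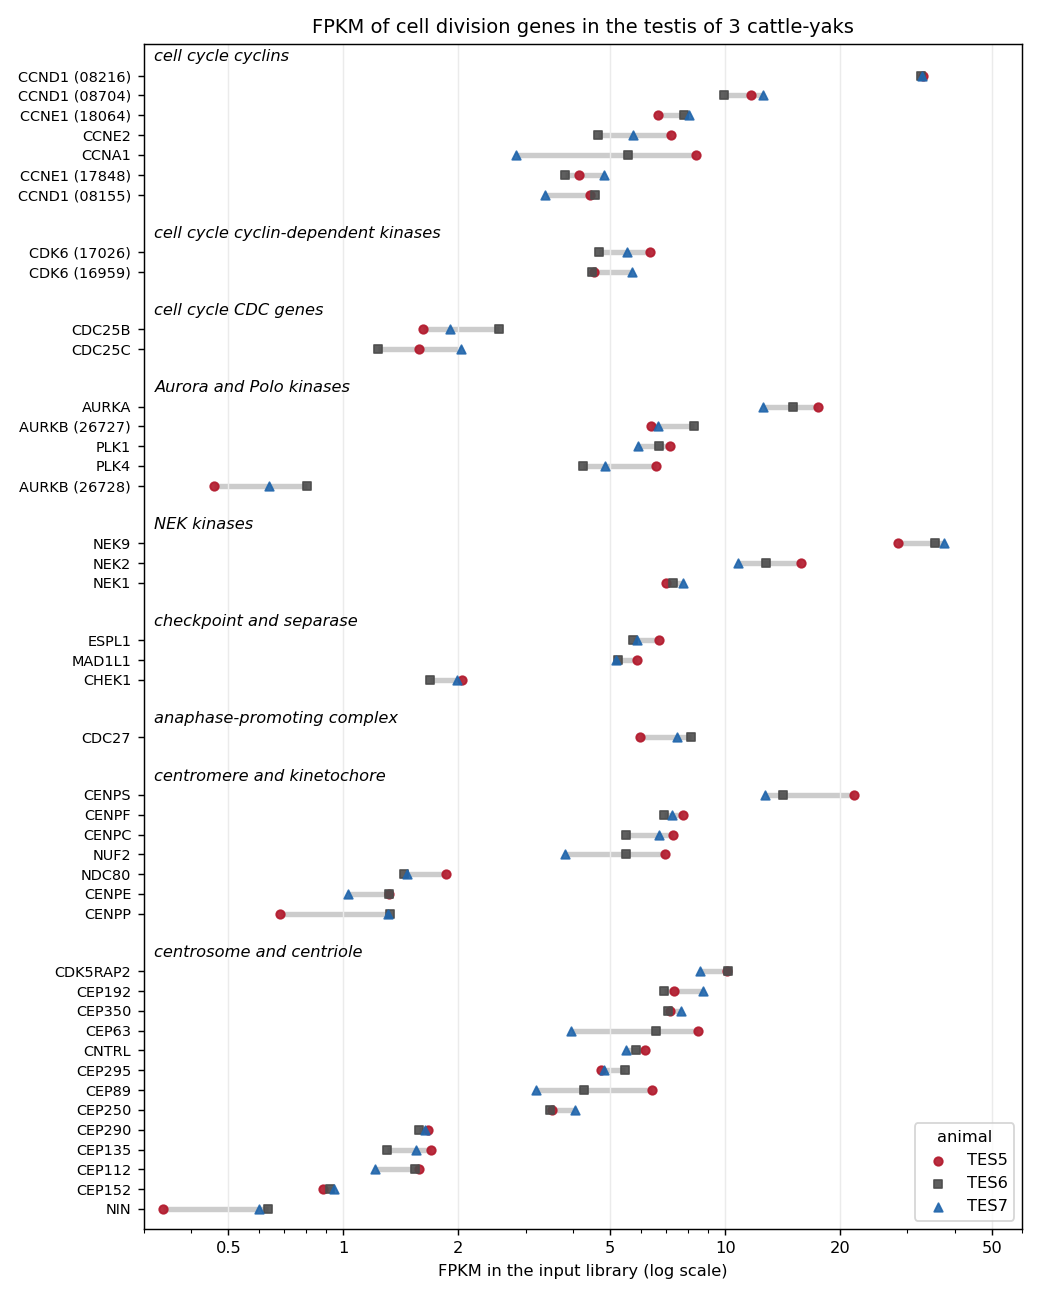
Input FPKM (log scale) of each animal (symbols for TES5, TES6 and TES7) for genes with a direct role that the naming rule picked other than by a small CV alone, grouped by role and with a mean of at least 0.5 FPKM, where numbers in brackets are the last digits of the identifier for symbols with several. Grey bars join the lowest and highest animal. CCNA1, CEP63, CEP89 and NUF2 are highest in TES5 and lowest in TES7, while the CCND1 identifier with a mean of 32.7 and CEP290 hardly differ between animals.

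Centrosome and centriole genes were the largest role, with 38 identifiers, 120 peaks and 101 of these (84.2%) in exons. CEP350, which anchors microtubules at the centrosome, had the most listed peaks of the set, 10, all in exons from exon 5 to exon 35 of 37 and over 60.6% of its span. After merging of peaks that overlap or lie within 100 bp, CEP350 had 7 and CEP290 had the most, 8. The FPKM of CEP350 was 7.16, 7.09 and 7.67. CEP290, the protein of the ciliary transition zone, had 9 peaks at 1.67, 1.58 and 1.64 FPKM. CEP295, which turns new centrioles into centrosomes, had 8 peaks at 4.73, 5.48 and 4.8 FPKM, of which 1 was in the 3' UTR.

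CDK5RAP2, which recruits gamma-tubulin, had 7 exon peaks and 10.1, 10.2 and 8.59 FPKM. Its widest peak was 61553 bp. CEP250, of the linker between the centrosomes, had 6 peaks and 3.51, 3.48 and 4.03 FPKM. CENPJ, named for the centromere but a regulator of centriole length, had 5 peaks at 2.95 ± 0.228 FPKM, and CEP164 of the distal appendages had 5 at 3.41 ± 0.88. None of these 7 genes had a peak in the 5' UTR, while the whole role had 8 of 120 there, beside 8.82% of all listed peaks.

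**Figure D4:**
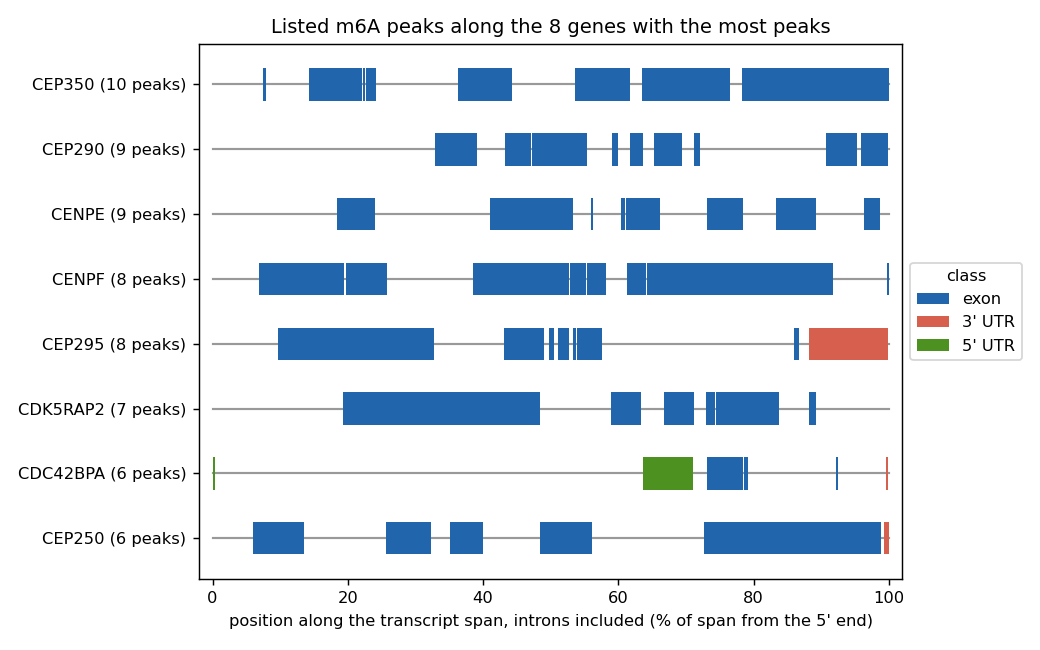
Listed m6A peaks along the 8 genes with the most peaks, drawn as position along the transcript span with introns (% of span from the 5' end) and coloured by the authors' class. Peaks are spread over the span in CEP350 (60.6% of the span in peaks) and CENPF (68.6%), while the 9 peaks of CEP290 begin after the first 30% of the span.

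The scaffolds on which centrioles are built had fewer peaks. CEP192, the organiser of the pericentriolar material, had 7.34, 6.92 and 8.73 FPKM and 4 peaks, 3 of them in the 5' UTR. CEP135 of the centriole cartwheel averaged 1.51 ± 0.200 FPKM with 3 exon peaks. CEP152, the platform for PLK4, had 0.882, 0.923 and 0.944 FPKM, and NIN, of the subdistal appendages, had 0.336, 0.634 and 0.601, with 3 peaks and 1 peak. CEP63, which holds CEP152 at the parent centriole, had more, 8.5, 6.59 and 3.93 FPKM, and exon peaks of 18654 and 9224 bp.

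CEP63 had the largest CV of the 112 genes after CCNA1, with a CV of 36.2% and TES5 at 2.16 times TES7. CEP89, of the distal appendages, followed at 6.42, 4.26 and 3.20 FPKM (ratio 2.01). CNTROB, of the daughter centriole, had 16.5, 11.5 and 9.68 FPKM, and CEP126 had 1.86, 1.73 and 1.09. At the stable end, CEP170 of the mother centriole had 8.0, 8.24 and 8.11 FPKM, and CEP57L1 averaged 3.31 ± 0.0536. CEP85 was the most abundant centrosome gene at 21.3 ± 1.00 FPKM.

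A few centrosome peaks are hard to place. CEP112 had a peak of 159650 bp in the 5' UTR class (chr19:1116336-1275985) at 1.57, 1.54 and 1.21 FPKM. CNTRL, of the maternal centriole, had 6.16, 5.82 and 5.50 FPKM under its main identifier, whereas a second identifier of 1179 bp on the opposite strand was listed at 0 in all 3 animals, with a 16856 bp peak that the annotation places in exon 31 of 44 of the main one. CEP120 is annotated with a span of 396 bp inside a 31980 bp peak and had 0, 1.79 and 0.938 FPKM. Further centrosome genes averaged between 1.06 (CEP128) and 10.51 (CEP68) FPKM with 1 to 4 peaks each.

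The 32 genes not assigned a direct role had a median of 11.1 FPKM and 1.63 peaks per gene, beside 5.00 FPKM and 2.39 for those with a direct role. CDC42SE2, a CDC42 effector, was highest of all at 64.4 ± 1.77 FPKM. CDC37, the chaperone partner of kinases, followed at 55.1, 55.4 and 54.9, the smallest CV of the set (0.454%). CCNG1 (40.9), CDK5RAP3 (40.6), CDK9 (38.4) and CCNL2 (35.1), with roles in the p53 response, protein modification, transcription and splicing, came next by mean FPKM. CDK5RAP3 had 47.0, 40.7 and 34.1 FPKM and a 51795 bp peak in the 3' UTR class.

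Among the other CDKs, CDK19 (15.8, 19.4 and 21.6 FPKM) and CDK17 (9.63, 11.7 and 13.1) were lowest in TES5. CDK12 and CDK13, kinases of transcription elongation, averaged 8.67 and 10.2 FPKM with 4 and 3 peaks. CDC42BPA, a kinase of the cytoskeleton, had 6 peaks at 4.38, 6.37 and 6.27 FPKM. CDC73, CDC5L, CDC34 and CDC37L1 averaged 22.1, 18.2, 17.6 and 13.4 FPKM with 2 peaks each, and both peaks of CDC73 lay in an exon of B3GALT2. AURKAIP1, a gene of the mitochondrial ribosome, averaged 18.9 FPKM with 1 peak. The remaining genes of this kind averaged between 0.785 (a second identifier of CCNL1) and 17.8 (CDC42EP1) FPKM, with 1 or 2 peaks each.

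Expression over the whole set was moderate. Mean FPKM had a median of 6.11 and quartiles of 3.15 and 11.3, whereas all 8775 listed genes with FPKM had 7.36, 2.80 and 15.8. At least 1 FPKM in all 3 animals was reached by 112 of the 125 (89.6%), against 86.9% of listed genes, and these 112 are used below. The other 13 were CEP120, CEP128, CEP152, NIN, CENPP, NEK5, NEK11, CDC14A, CDK14 and the lower identifier of each of AURKB, CNTRL, MAD1L1 and CCNL1. At least 10 FPKM on average was reached by 37 (29.6%, interval 22.3 to 38.1), against 39.7%. At least 50 was reached by CDC42SE2 and CDC37 only (1.6%, interval 0.44 to 5.65), against 4.97% of listed genes.

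The median CV over the 3 animals was 11.3% (11.6% over listed genes), and without TES5 it was 7.44% (7.36% over listed genes). Without TES6 it was 10.6% and without TES7 9.26%. A median CV over 2 animals tends to be below that over 3, so part of each fall comes from the smaller number of values. A CV of at least 25% was seen in 14 of 112 (12.5%), against 11.5% of listed genes. The highest value was in TES5 for 52 of 112 (46.4%, interval 37.5 to 55.6), against 35.9% of listed genes, in TES7 for 34 and in TES6 for 26. TES5 reached 1.5 times TES7 in 11 genes (9.82%), against 6.66% of listed genes, and the reverse held for 2 (1.79%), against 4.94%. The 11 were CCNA1, CEP63, CEP89, NUF2, CENPS, CENPU, CEP164, CEP126, CNTROB, MAD2L2 and AURKAIP1 (24.4, 17.0 and 15.4 FPKM). The 2 were MAD2L1BP and an identifier of CDC42EP3.

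Among the genes with a direct role, 43 of 82 (52.4%) were highest in TES5 and the median ratio of TES5 to TES7 was 1.09. Among those not assigned a direct role, it was 9 of 30 (30%) and 0.939. The difference between these groups of genes was not tested. At equal library sums the shares were 36.6% and 16.7%. The roles did not follow this division throughout. For roles in cell division, the median ratio was 1.29 for Aurora and Polo kinases, 1.17 for the kinetochore, 1.13 for the checkpoint and separase, 1.1 for the centrosome, 1.05 for the anaphase-promoting complex, 1.03 for NEK kinases and 1.01 for cyclins, but 0.970 for the CDK6 identifiers and 0.880 for the CDC genes. For the roles set apart, it was 0.863 for CDC42 and its effectors, 0.888 for the other CDKs, 0.983 for the other cyclins and 1.01 for the other CDC genes. For the CDK-binding proteins it was 1.18, with 3 of 4 highest in TES5. The ratio depends on scaling. FPKM summed over all 20953 genes of the table came to 302365, 280940 and 285927 for TES5, TES6 and TES7, and when the libraries were set to equal sums, 31.3% of the 112 were highest in TES5 (25.1% of listed genes) and the median ratio of the set fell from 1.04 to 0.979, and that of the listed genes from 0.975 to 0.923. The share and median ratio of the set were above those of the listed genes under both scalings, but the shares lay closer at equal sums. No interval was computed for the share at equal sums, and the difference was not tested.

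**Figure D5:**
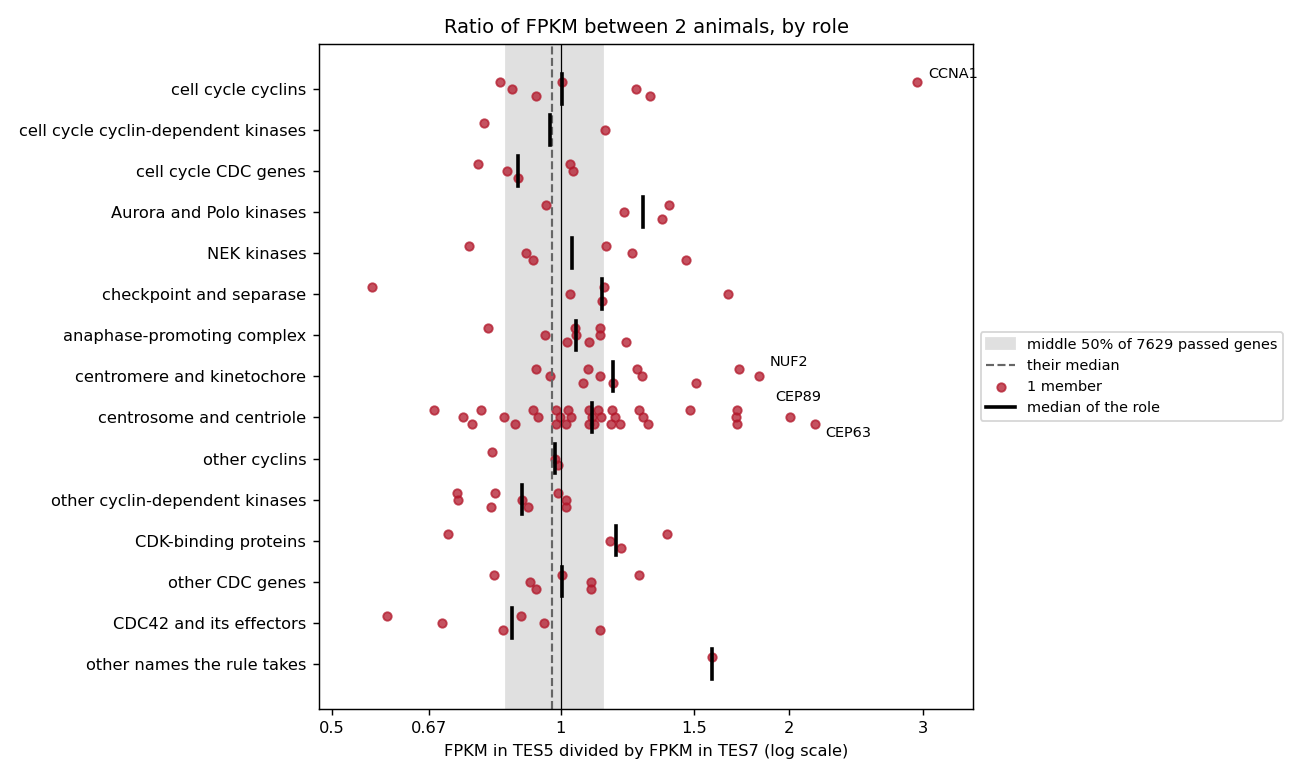
Ratio of FPKM in TES5 to FPKM in TES7 (log scale) for the 112 genes with at least 1 FPKM in all animals, each a point, by role with the median as a black bar. The grey band holds the middle 50% of all 7629 such genes with a peak and the dashed line their median of 0.975. CCNA1 stands far to the right at 2.95, and the medians of the kinetochore (1.17), Aurora and Polo (1.29) and CDK-binding (1.18) genes and the 1 point of AURKAIP1 lie to the right of the band.

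Spermatocyte markers were also highest in TES5. The summed FPKM of 10 spermatocyte marker identifiers (5 symbols) in the list was 77.0 in TES5, 50.4 in TES6 and 56.5 in TES7. Of the 7 identifiers with at least 1 FPKM in all animals, 6 were highest in TES5, beside 35.9% of listed genes. Examples were the strongest DMC1 identifier with 21.4, 8.72 and 15.4 FPKM and SYCP1 with 6.71, 4.76 and 4.85. Marker values were not set to equal library sums. Sertoli cell markers summed to 77.0, 90.6 and 84.1, and peritubular myoid markers to 356, 405 and 383. Spermatogonial markers summed to 27.1, 28.6 and 35.1. The part of cell composition in the values of the cell division genes was not tested.

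Further genes of the same pathways were taken from 6 lists with 143 symbols, of which 96 were in the peak list, with 223 peaks. The shares of each list below stand beside the 45.2% of all named protein-coding symbols that were in the peak list. The list shares count all 143 symbols, of which 138 are among those named symbols, so the bases differ slightly. Of the 100 identifiers with at least 1 FPKM in all animals, TES5 was highest for 50, TES6 for 24 and TES7 for 26, beside the 35.9% of listed genes highest in TES5. At equal library sums TES5 was highest for 28, TES6 for 41 and TES7 for 31, beside 25.1% of listed genes highest in TES5. The lists did not all lean the same way. Of 17 genes for CDK inhibitors, RB and E2F proteins in the peak list, 5 were highest in TES5 and 10 in TES7, while in the list of the outer kinetochore and chromosomal passengers it was 9 of 14 in TES5.

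CDKN1A, the p21 inhibitor of CDKs, had 93.4, 78.2 and 69.4 FPKM, whereas E2F1, a transcription factor of S phase genes, had 32.8, 30.2 and 35.8. RB1, the pocket protein that holds E2F proteins, had 3 peaks and 2.88 ± 0.127 FPKM. In the replication list (15 of 21 symbols in the peak list), the helicase subunit MCM7 led with 5 peaks and 81.2 ± 2.42 FPKM. Cohesin and condensin genes (15 of 21) included RAD21, the cleavable cohesin subunit, at 67.9, 88.2 and 77.7 FPKM, and WAPL, the release factor of cohesin, with 5 peaks.

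Spindle and cytokinesis genes (17 of 21) included TPX2, the activator of AURKA, at 36.1 ± 2.81 FPKM and CKAP5, a microtubule polymerase, with 5 peaks and 31.7 ± 0.534 FPKM. Genes of the centriolar satellites and gamma-tubulin (19 of 30) included ALMS1, a centriole protein, with 11 peaks, more than any of the 125 genes above, and CROCC, the rootletin that joins centrioles, with 8. ODF2, of the centriole appendages and the sperm tail, had 44.0, 30.6 and 17.5 FPKM, a ratio of TES5 to TES7 of 2.52. In the outer kinetochore list (13 of 22), DSN1 of the MIS12 complex had 22.7, 16.3 and 17.0 FPKM and SPC24, a partner of NUF2, had 7.05, 4.76 and 4.13. SPC24 and RB1 were picked after their values were seen.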

How the data were processed

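Peaks of 6 libraries (m6A IP and input of 3 animals) had been called by the authors with MeTDiff (fragment length 200, p cutoff 0.01, FDR cutoff 0.05) and annotated with ChIPseeker on build LU_Bosgru_v3.0, after trimming with Trimmomatic and alignment with HISAT2 2.0.4 (submitters' processing notes). The deposited FPKM values of the input libraries were used as given, and the program behind them is not given in the sources used here. FPKM values are not counts, so no count model was used, and depth per library was not used. Terms and pathways are those of the deposited list.

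Genes were matched by symbol and FPKM by identifier. Counts, medians, Wilson 95% intervals, SDs and CVs over 3 animals and Spearman's rho were computed with Python 3.11.15, pandas 2.3.3 and SciPy 1.17.1, and checked on simulated data. Genes were named by a rule: most peaks (8), highest mean FPKM (8), largest and smallest CV (5 each), widest peak (5), symbols with several identifiers, and 50 fixed cell cycle symbols, of which 28 are in the set. From each pathway list the 2 genes with most peaks and the 2 of highest FPKM were eligible. A gene that the rule picks is not reported here. Others fill out a role, chosen with values known. The set and all lists were chosen with earlier results of these data known. Alternatives were other scalings, minimum FPKM, peak classes and single animals left out. Splits by transcript span and by exon number and the scaling of single roles and lists were chosen after seeing the data.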

Additional observations from a re-analysis of the deposited data

How the results depend on the processing

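Keeping only widths up to 1000 bp, the exon share of the set moved from 74.5% to 64.6% and the 3' UTR share from 16.4% to 25.3%. Weighting peaks by width gave 10.7% for the 3' UTR and 15.0% for the 5' UTR (9.12% unweighted), so the order of these classes turned, as wide peaks count more. The 5' UTR class holds the 159650 bp peak of CEP112, and the weighted shares were not computed without that peak. Restricting to genes with at least 1 FPKM in every library raised the median FPKM from 6.11 to 7.15, by construction. It moved rho of peak number and FPKM from -0.16 to -0.28, and the cause was not tested. The median CV of 11.3% ranged from 7.44% to 10.6% with 1 animal left out, lowest without TES5, in part because fewer values tend to give a lower CV. The number of genes with at least 1 FPKM in every library ranged from 112 to 113, and the median FPKM from 5.81 to 6.39. Setting libraries to equal sums moved the share highest in TES5 from 46.4% to 31.3% and the share higher in TES5 than in TES7 from 58.9% to 47.3%. The median of ratios left the former at 46.4%. That share was not computed with an animal left out. Other counts, medians and shares moved by less than their interval or by less than 1.5 times. For the 59 named identifiers, 118 means at other scalings lay within 1 SD of the value as listed. So did 177 means with 1 animal left out, which cannot exceed it and say nothing of stability. No paired analysis was possible because peaks come without values for single animals and the FPKM used are those of 1 kind of library. With 3 animals of 1 group, no difference between animals was tested. Overlapping genes and symbols with several identifiers (8 symbols, 17 identifiers) may share reads.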

Other observations

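The term RNA-directed DNA polymerase activity was attached in the peak list to 29 of the 114 genes with terms (25.4%, interval 18.3 to 34.1), against 16.7% of all listed genes with terms. The known functions of the genes described here do not include it. ZWILCH, a kinetochore protein of the outer kinetochore list, had 2 identifiers of very different level, with means of 11.0 and 266 FPKM and 1 peak each. The cell cycle pathway annotation in the list named 43 of the 2547 listed genes with a pathway (1.69%). Of the 125 genes only 28 had a pathway, and 8 of these 28 (28.6%) were named (ANAPC2, CCNA1, CCNE2, CDC16, CDC6, CHEK1, ESPL1 and MAD2L2). A high share follows from the choice of genes by symbol.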
